A study of Mus musculus with 6 samples.

Results

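The genes described are the WNT ligands, their Frizzled and LRP receptors, the R-spondins with their LGR receptors, the secreted WNT antagonists and the feedback target Axin2, in cells sorted from mouse hearts. They were chosen by symbol: Wnt, Fzd, Sfrp, Rspo or Dkk followed by digits, and Frzb, Wif1, Lrp5, Lrp6, Axin2, Lgr4, Lgr5 and Notum, with at least 20 UMIs (unique molecular identifiers, 1 per captured RNA molecule) over all barcodes. Of 31055 genes in the matrix 49 had such a symbol, and 34 of these reached 20 UMIs: 11 ligands, 10 receptors, 5 R-spondin or LGR genes, 7 antagonists and Axin2. Just inside the limit lay Wnt10b with 30 UMIs and Wnt7b with 33, and the gene just outside was Fzd10 with 10 UMIs. Among those left out were Notum with 5 UMIs, Wnt1 with 3 and Dkk1 with 1, and Wnt3a and Rspo4 had 0.

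The study profiled EGFP-positive non-myocytes from hearts of C57BL/6 mice of 3 to 6 months by droplet single-cell RNA-seq of 3′ ends. Dsp_het mice had the genotype Wt1CreERT2:Rosa26mTmG:DspW/F, with 1 conditional allele of Dsp, the gene of the desmosome protein desmoplakin, and control mice had Wt1CreERT2:Rosa26mTmG alone. Each group had 3 libraries. All mice therefore carried the inducible Cre driven by Wt1, which the epicardium, the mesothelium that covers the heart, is known to express, and the reporter that turns on EGFP where Cre has acted; the labels name no inducing agent. The labels do not say whether a library came from 1 animal, so p-values measure the spread between these libraries. The question the design poses is how cells of the Wt1-Cre lineage differ when 1 Dsp allele is lost, in a mouse model of arrhythmogenic cardiomyopathy.

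WNT proteins are secreted lipid-modified ligands that bind Frizzled receptors, alone or together with LRP5 or LRP6. When an LRP takes part, β-catenin is stabilised and acts with TCF/LEF factors on target genes, of which Axin2 is a feedback inhibitor, while other ligands such as WNT5A act mainly without β-catenin. R-spondins bind LGR receptors and keep Frizzled and LRP at the cell surface, SFRP proteins, FRZB and WIF1 bind the ligands outside the cell, and DKK1 and DKK2 bind LRP5 and LRP6. In the developing heart the epicardium is a source of WNT and R-spondin signals.

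Cells were grouped by clustering in which the 34 genes took no part, and clusters were named from marker lists. Dsp_het libraries held 1988, 1459 and 743 endothelial-like cells, against 2076, 1246 and 2111 in control libraries. Fibroblast-like cells numbered 627, 117 and 91 in Dsp_het libraries, against 117, 96 and 164 in control libraries, and epicardial-like cells 239, 79 and 95, against 49, 47 and 92. Most cells of every library were thus endothelial-like, although the labels call them epicardial derived. The 12 epicardial markers summed to 7472 to 9253 CPM (UMIs of a gene per 1000000 UMIs of the cells summed) in epicardial-like cells of Dsp_het libraries and to 7468 to 8864 CPM in those of control libraries. In endothelial-like cells the same sum was 39.9 to 50.1 CPM in Dsp_het libraries and 28.7 to 38 CPM in control libraries. Dsp itself had 16, 11 and 31 UMIs in Dsp_het libraries and 13, 15 and 32 in control libraries, too few to check the genotype. GFP was at 2631 to 3023 CPM in Dsp_het libraries and 2602 to 2796 CPM in control libraries. Xist marked Dsp_het library 2 and control library 3 as female, at 645 and 504 CPM. Of 13183 different barcodes 1689 were shared between libraries, and each cell was kept only where at least 0.5 of its UMIs lay. This left 12643 cells, with medians of 3489 to 6500 UMIs per library.

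UMIs of a 3′ end count molecules and carry no scaling by gene length. Levels below are CPM of the UMIs summed over the cells of a class in a library. Since the classes come from clustering these same cells, differences between classes are descriptions and were not tested. Only the 3 classes with at least 20 cells in each library were ranked. Smaller groups were left out, and some genes were higher there, such as Lrp6 at 89.1 CPM in the main macrophage-like cluster. Each gene was given the ranked class with the highest mean over the 6 libraries. By this, 14 of the 34 genes were highest in epicardial-like, 15 in fibroblast-like and 5 in endothelial-like cells. In 19 genes that class was the highest in 6 of 6 libraries. Of the 11 ligands 6 were highest in epicardial-like, 4 in fibroblast-like and 1 in endothelial-like cells. Of the 10 receptors 4 were highest in endothelial-like, 4 in epicardial-like and 2 in fibroblast-like cells, and the 7 antagonists were all highest in fibroblast-like cells. These counts by role were not tested. These 34 genes all kept their class when the 34 were allowed into the clustering, but only 10 of them were then among the variable genes it used. The class turned in Fzd2, to fibroblast-like, when cells needed at least 1000 UMIs and at most 10% mitochondrial UMIs. Without a small fibroblast-like cluster led by Ccl11, described below, Dkk2 became highest in endothelial-like and Rspo3 in epicardial-like cells.

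**Figure D1:**
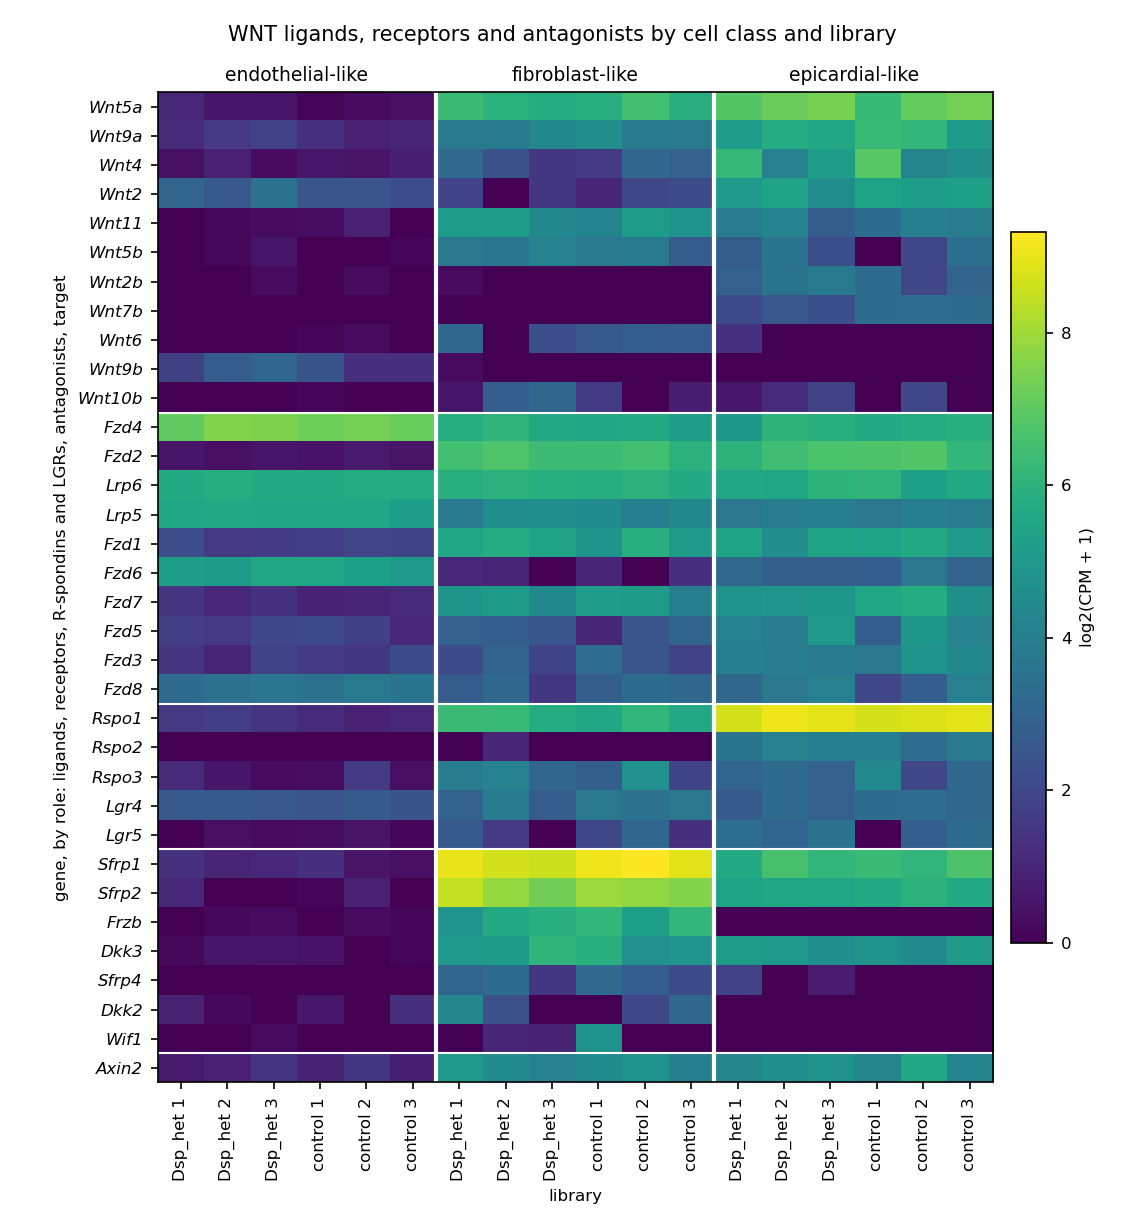
Level of each of the 34 genes (rows, grouped by role) in each library (columns, 6 per class), as log2 of CPM plus 1 by colour. Rspo1 is brightest in the epicardial-like columns, Sfrp1 and Sfrp2 in the fibroblast-like columns and Fzd4 in the endothelial-like columns, in both genotypes.

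Among the ligands, Wnt5a, which acts mainly through receptors other than LRP5 and LRP6, was highest in epicardial-like cells. There it had 115, 144 and 167 CPM in the Dsp_het libraries, against 73.8, 137 and 166 CPM in the control libraries. Fibroblast-like cells had 80.2, 60.5 and 54.1 CPM in the Dsp_het libraries, against 55.9, 89 and 56 CPM in the control libraries. The libraries of the genotypes overlapped in both classes, and endothelial-like cells held at most 1.05 CPM in any library.

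Wnt9a, a ligand of the β-catenin branch, had 34.4, 53.1 and 45.5 CPM in the Dsp_het libraries, against 76.8, 71.6 and 33 CPM in the control libraries, in epicardial-like cells. Wnt4, a ligand of kidney and gonad development in the mouse, had 73.5, 15.7 and 35.4 CPM in the Dsp_het libraries, against 118, 17.9 and 24.2 CPM in the control libraries, in the same class. In both genes the libraries of the genotypes overlapped, and Wnt4 was the more scattered, with Dsp_het library 1 and control library 1 far above the other 4.

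Wnt2, a ligand of the heart's inflow region and of lung development in the mouse, was found in both epicardial-like and endothelial-like cells. Epicardial-like cells had 31.8, 39.8 and 22.8 CPM in the Dsp_het libraries, against 41.4, 35.8 and 37.8 CPM in the control libraries. Endothelial-like cells had 7.20, 5.09 and 10.5 CPM in the Dsp_het libraries, against 4.56, 4.47 and 3.61 CPM in the control libraries, and Wnt2 was the ligand with the highest mean in that class. Epicardial-like cells lay above endothelial-like cells in each of the 6 libraries. Wnt9b was the 1 ligand highest in endothelial-like cells, with 2.40, 5.57 and 7.28 CPM in the Dsp_het libraries, against 4.30, 1.42 and 1.47 CPM in the control libraries, and had 0 UMIs in epicardial-like cells.

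Wnt11, a ligand known for cell movements in the embryo, was highest in fibroblast-like cells, at 34.3, 36.1 and 19.2 CPM in the Dsp_het libraries, against 17.3, 34.1 and 25.9 CPM in the control libraries. These libraries overlapped, and epicardial-like cells were lower in each of the 6. Wnt5b, Wnt6 and Wnt10b had their highest means in fibroblast-like cells too, at 11.9 ± 3.55 CPM, 4.67 ± 2.64 CPM and 2.73 ± 3.11 CPM (SD, n = 6 libraries). Wnt2b and Wnt7b were epicardial-like, at 8.07 ± 3.47 CPM and 6.38 ± 2.75 CPM: 52 of 55 Wnt2b UMIs and 31 of 31 Wnt7b UMIs lay in that class.

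Among the receptors, Fzd4, the Frizzled through which the ligand Norrin also acts on vessels, was highest in endothelial-like cells, at 130.1, 188 and 175 CPM in the Dsp_het libraries, against 153, 165 and 140.5 CPM in the control libraries. It lies at chr7:89404355-89413134, plus strand (GRCm38). Fibroblast-like cells had 48.6 to 65.4 CPM in the Dsp_het libraries and 35.7 to 49 CPM in the control libraries, and epicardial-like cells had 29.7 to 64 CPM in the Dsp_het libraries and 50.2 to 60.1 CPM in the control libraries. Endothelial-like cells thus lay above both other classes in every library, while the genotypes overlapped.

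The co-receptor Lrp5 was also highest in endothelial-like cells, at 45.8, 48.7 and 47.3 CPM in the Dsp_het libraries, against 45.8, 46.1 and 36.2 CPM in the control libraries. Its partner Lrp6 was spread over the classes and, in endothelial-like cells, had 50.9, 55.2 and 49.9 CPM in the Dsp_het libraries, against 49.2, 54 and 51.9 CPM in the control libraries. Fibroblast-like cells had 56.8, 62.5 and 57.7 CPM in the Dsp_het libraries, against 54.9, 62.3 and 50.4 CPM in the control libraries, and epicardial-like cells had 45.3, 44.7 and 63.9 CPM in the Dsp_het libraries, against 65, 38.8 and 49.5 CPM in the control libraries. For Lrp6 the means were 51.8 ± 2.36 CPM in endothelial-like, 57.4 ± 4.61 CPM in fibroblast-like and 51.2 ± 10.8 CPM in epicardial-like cells (SD, n = 6 libraries). Within libraries, fibroblast-like cells lay above endothelial-like cells in all but control library 3, and the difference was not tested.

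Fzd6, a Frizzled of planar cell polarity, was endothelial-like at 36.8, 32.6 and 46.7 CPM in the Dsp_het libraries, against 43.8, 38.2 and 32.1 CPM in the control libraries. Fibroblast-like cells had at most 1.40 CPM in any library, so endothelial-like cells were far above them. Fzd8 could not be placed in 1 class: its mean was 10.8 ± 1.46 CPM in endothelial-like and 10.0 ± 5.28 CPM in epicardial-like cells (SD, n = 6 libraries).

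Fzd2, a receptor for WNT5A, had the opposite distribution to Fzd4 and Fzd6. It had 88.8, 107 and 82.5 CPM in the Dsp_het libraries, against 82.4, 90.5 and 61.6 CPM in the control libraries, in fibroblast-like cells. Epicardial-like cells had 64.6, 88.1 and 102 CPM in the Dsp_het libraries, against 103, 110.3 and 71.8 CPM in the control libraries. These 2 classes overlapped, as did the genotypes, and endothelial-like cells had a mean of 0.429 ± 0.0991 CPM (SD, n = 6 libraries).

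Fzd1 had 44.9, 53.7 and 40.3 CPM in the Dsp_het libraries, against 27.5, 56.4 and 32.2 CPM in the control libraries, in fibroblast-like cells, and Fzd7 had 26.6, 27.8 and 29.7 CPM in the Dsp_het libraries, against 47.3, 53.7 and 24.2 CPM in the control libraries, in epicardial-like cells. Both are Frizzleds of the same subfamily as Fzd2, and both overlapped between genotypes and between the fibroblast-like and epicardial-like classes. Fzd3 and Fzd5 were highest in epicardial-like cells in each library, with means of 16.8 ± 5.53 CPM and 19.1 ± 9.82 CPM (SD, n = 6 libraries).

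Rspo1, an R-spondin that raises WNT signalling and is known in the mouse for ovary development, marked the epicardial-like class, at 422, 541 and 485 CPM in the Dsp_het libraries, against 422, 456 and 489.8 CPM in the control libraries. It lies at chr4:124986430-125009099, plus strand (GRCm38). Fibroblast-like cells had 80.9, 77.1 and 54.1 CPM in the Dsp_het libraries, against 46.8, 71.2 and 49 CPM in the control libraries. The lowest epicardial-like library was thus far above the highest fibroblast-like one, with genotypes overlapping in both classes. Of 81 Rspo2 UMIs 80 lay in epicardial-like cells, at a mean of 13.2 ± 2.68 CPM (SD, n = 6 libraries). Rspo3 was highest in fibroblast-like cells with 14.4, 16.6 and 7.33 CPM in the Dsp_het libraries, against 6.10, 25.2 and 2.80 CPM in the control libraries. Control library 2 was the highest and control library 3 the lowest, so the genotypes overlapped.

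The R-spondin receptor Lgr4 was low in all 3 classes, with 10.0 ± 3.32 CPM in fibroblast-like, 7.59 ± 1.51 CPM in epicardial-like and 4.83 ± 0.367 CPM in endothelial-like cells (SD, n = 6 libraries). It was the member of its group with the highest mean in endothelial-like cells, at 5.10, 5.25 and 4.71 CPM in the Dsp_het libraries, against 4.43, 5.08 and 4.40 CPM in the control libraries. The genotypes overlapped there. Lgr5, a stem cell marker of the gut in the mouse, reached 7.01 ± 3.82 CPM in epicardial-like cells (SD, n = 6 libraries).

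All 7 antagonists had their highest mean in fibroblast-like cells. Sfrp1, a secreted Frizzled-related protein that binds WNT ligands, had 518, 405 and 377 CPM in the Dsp_het libraries, against 542, 638 and 464 CPM in the control libraries, in fibroblast-like cells. It lies at chr8:23411502-23449632, plus strand (GRCm38). Epicardial-like cells had 50.6, 96.6 and 70.2 CPM in the Dsp_het libraries, against 79.8, 68.6 and 105 CPM in the control libraries. Fibroblast-like cells were above epicardial-like cells in each library, and the genotypes overlapped. In endothelial-like cells Sfrp1, at 0.936 ± 0.498 CPM (SD, n = 6 libraries), was the antagonist with the highest mean.

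Sfrp2, a close relative of Sfrp1, had 351, 230.4 and 158 CPM in the Dsp_het libraries, against 243, 221 and 189.6 CPM in the control libraries, in fibroblast-like cells. Dsp_het library 1 was the highest and Dsp_het library 3 the lowest, so the genotypes overlapped. In epicardial-like cells Sfrp2 had 41.2, 47.1 and 44.9 CPM in the Dsp_het libraries, against 50.2, 62.6 and 51.4 CPM in the control libraries.

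Frzb, another ligand-binding antagonist, lay nearly all in fibroblast-like cells: 439 of its 447 UMIs lay there, at 28.3, 49.8 and 57.7 CPM in the Dsp_het libraries, against 71.2, 37.1 and 71.3 CPM in the control libraries. It had 0 UMIs in epicardial-like cells, which separates it from Sfrp1 and Sfrp2. Dkk3, a Dickkopf family member that, unlike DKK1, is not known to act through LRP6, had 30.7, 33.2 and 66.9 CPM in the Dsp_het libraries, against 60.0, 25.2 and 28 CPM in the control libraries, in fibroblast-like cells. Dsp_het library 3 and control library 1 were high and the genotypes overlapped, and epicardial-like cells had 24 to 34.4 CPM in the Dsp_het libraries and 20.9 to 33 CPM in the control libraries. Sfrp4 was lower, at 5.91 ± 2.74 CPM in fibroblast-like cells (SD, n = 6 libraries). Wif1 rested on 29 UMIs in 5 cells, of which 25 UMIs lay in 1 cell, so its level is that of a single cell.

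Axin2, a direct target of β-catenin signalling that feeds back on it, was found mainly in epicardial-like and fibroblast-like cells. It lies at chr11:108920349-108950783, plus strand (GRCm38). Epicardial-like cells had 18.8, 24.2 and 25.9 CPM in the Dsp_het libraries, against 17.7, 47.7 and 17.5 CPM in the control libraries. Fibroblast-like cells had 30.1, 21.5 and 15.6 CPM in the Dsp_het libraries, against 21.4, 26.7 and 14.7 CPM in the control libraries. The classes overlapped, control library 2 stood above the others in epicardial-like cells, and endothelial-like cells held 1.10 ± 0.528 CPM (SD, n = 6 libraries).

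**Figure D2:**
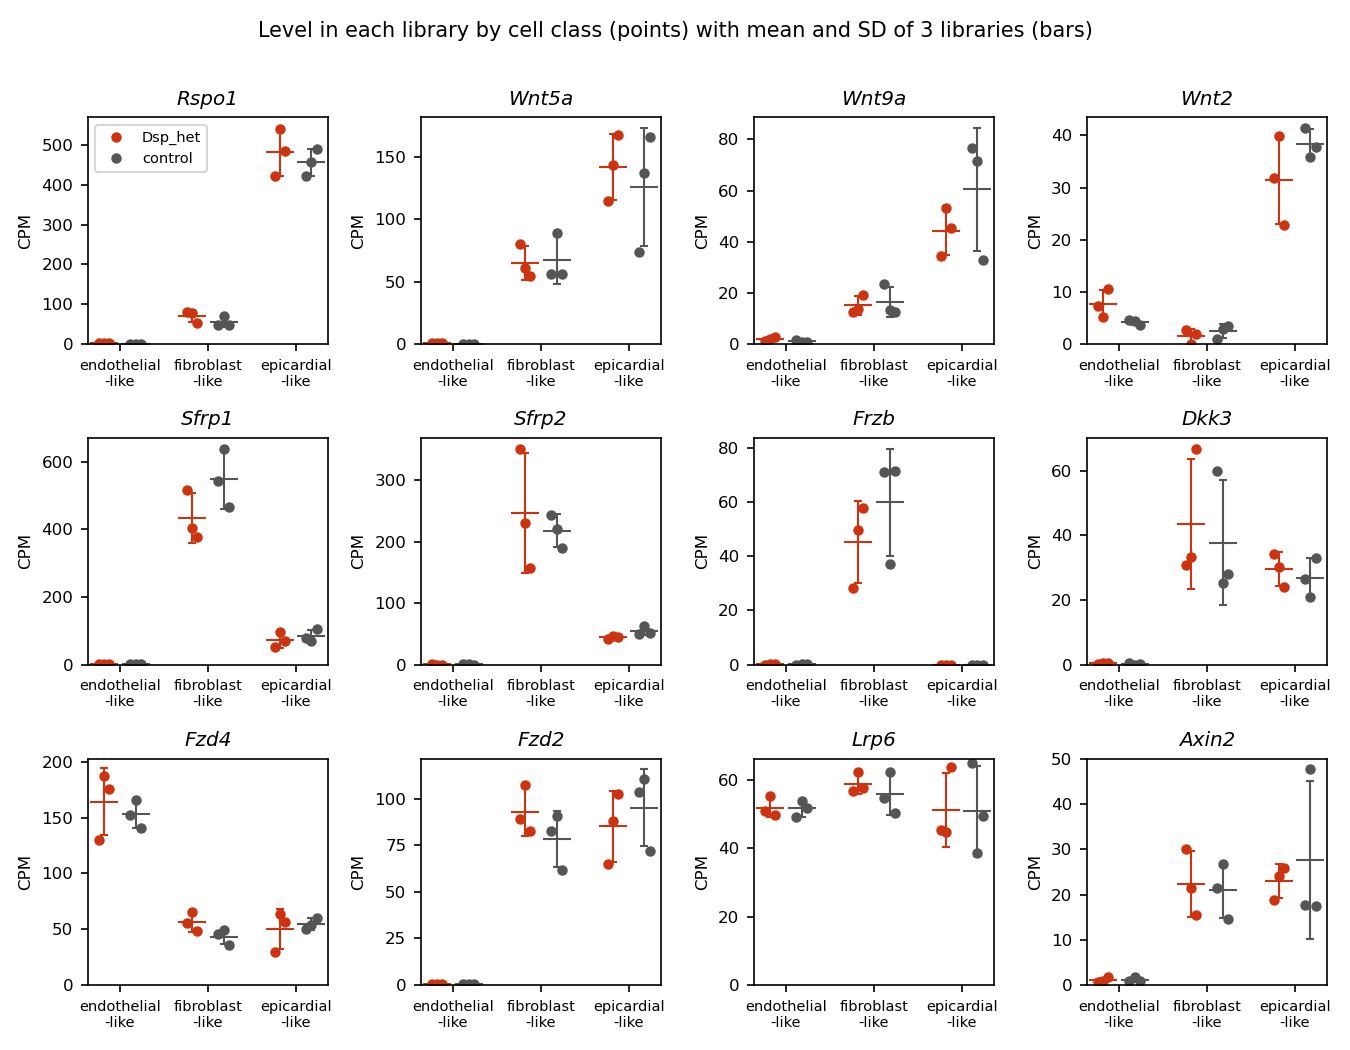
CPM of 12 genes (panels) by class (x axis), with 1 point per library, Dsp_het in red left of control in grey, and bars for mean and SD (n = 3 libraries each). In fibroblast-like and epicardial-like cells the points of the genotypes overlap in these panels except for Sfrp2 in epicardial-like cells. The 3 classes stand apart for Rspo1, Sfrp1 and Sfrp2. For Frzb only fibroblast-like cells stand apart, and for Fzd4 only endothelial-like cells.

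Promoters of 3 genes are shown because Rspo1 was the R-spondin of the epicardial-like class, Axin2 is the pathway's own target, and Wnt11 has a TCF/LEF motif, the DNA letters through which β-catenin signalling acts. Each is the 250 bases before a RefSeq start site in GRCm38.p6, from 5′ to 3′ on the gene's strand, with TCF/LEF letters in capitals. The regions are chr4:124986180-124986429 (plus strand) for Rspo1, chr11:108920099-108920348 (plus strand) for Axin2 and chr7:98834862-98835111 (plus strand) for Wnt11.
Rspo1: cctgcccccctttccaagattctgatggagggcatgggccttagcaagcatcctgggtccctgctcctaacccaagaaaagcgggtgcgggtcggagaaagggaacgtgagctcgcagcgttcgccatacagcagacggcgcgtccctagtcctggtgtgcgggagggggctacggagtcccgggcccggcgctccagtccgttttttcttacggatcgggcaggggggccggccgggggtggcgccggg
Axin2: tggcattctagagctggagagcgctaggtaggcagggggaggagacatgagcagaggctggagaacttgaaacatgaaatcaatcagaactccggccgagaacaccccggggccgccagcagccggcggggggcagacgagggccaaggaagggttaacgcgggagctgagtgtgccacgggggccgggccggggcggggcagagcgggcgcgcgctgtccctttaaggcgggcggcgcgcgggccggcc
Wnt11: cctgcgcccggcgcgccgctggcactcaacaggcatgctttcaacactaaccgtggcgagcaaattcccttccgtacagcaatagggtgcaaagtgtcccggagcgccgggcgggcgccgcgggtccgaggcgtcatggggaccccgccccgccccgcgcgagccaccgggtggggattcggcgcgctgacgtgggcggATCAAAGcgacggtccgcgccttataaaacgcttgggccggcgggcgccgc
The letters searched were CTTTGAA and CTTTGAT on both strands, in windows of 250 bases before and 50 after each start site. They were found in 2842 of 32851 RefSeq windows (8.65%) and in 2 of the 23 windows of the 20 matched genes, 1 each for Wnt11 and Wnt5b. In Wnt11 the match is on the reverse strand and begins 51 bases before the start site. The WT1 motif GCGTGGGAG was found in 155 windows (0.472%) and in 0 of the 23. A match is a description of letters, and its absence from a window says nothing about the factor.

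Within the endothelial-like class, Wnt2 and Wnt9b were not spread evenly. A cluster of 214 cells was led by Cytl1, a secreted protein, and Plvap, a protein of the diaphragms of fenestrated vessels. Among its leading genes Cytl1, Plvap and Npr3 were on the endocardial marker list, and Plvap and Vwf on the venous list. This cluster held 106 of 224 Wnt2 UMIs of the class. Wnt2 there was at 56.8 CPM (95% exact Poisson interval 46.5 to 68.7, counting error only), against 3.04 CPM in the rest of the class. Per library it was 52.8, 68.0 and 53.4 CPM in Dsp_het libraries, against 60.1, 75.4 and 50.8 CPM in control libraries, which overlap. Wnt9b was at 27.3 CPM in that cluster (interval 20.4 to 36.0), against 2.32 CPM in the rest of the class. It was uneven between libraries, at 10.6, 30.9 and 32.0 CPM in Dsp_het libraries, against 77.7, 18.8 and 9.68 CPM in control libraries.

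A cluster of 1489 cells led by Ccl21a and Rasa4, with Nr2f2, a regulator of venous identity, among its 10 leading genes, was next. It had 13.5 CPM of Wnt2 (interval 11.1 to 16.3), 9.73 CPM of Wnt9b (7.71 to 12.1) and 3.65 CPM of Rspo1 (2.46 to 5.21). These are 111, 80 and 30 UMIs. In the cluster led by Hey1 and Gja4, genes of arterial endothelium, Wnt2 had 0 UMIs and Wnt9b had 1 in 1383 cells, and in the cluster led by Rbp7 and Cxcl12 both had 0 in 1429 cells, with an exact interval up to 0.694 CPM. The receptors were spread more evenly: Fzd4 ran from 76.1 CPM in the Cytl1 cluster to 296 CPM in a cluster led by Lars2 and Syne1, whose median was 1494 UMIs per cell, the lowest of the class. That cluster also had the highest Lrp5, Lrp6 and Fzd6, at 96.2, 100.2 and 64.0 CPM, and the part of depth in this was not tested.

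Within the fibroblast-like class, a small cluster of 72 cells led by Ccl11 and Igfbp3 stood apart. Of its cells 62 came from Dsp_het library 1, so its values are mainly those of 1 library, and 0 of its 10 leading genes were fibroblast markers. Sfrp2 was among those 10. It held 102 of the 103 fibroblast-like Dkk2 UMIs, at 178 CPM (interval 145 to 217). Dkk2 there was at 176 CPM in Dsp_het library 1 and 193 CPM in Dsp_het library 2, against 0, 169 and 230 CPM in the control libraries. Dsp_het library 2 held only 3 cells of the cluster, the control libraries 1, 2 and 4, and Dsp_het library 3 had none. Lgr5 was at 52.5 CPM (interval 35.4 to 74.9), Rspo3 at 89.2 CPM (66.4 to 117) and Sfrp2 at 777 CPM (706 to 852). In the rest of the class these were 0.437, 7.21 and 242 CPM. Frzb had 0 UMIs in this cluster, with an interval up to 6.45 CPM, while the main cluster of 1102 cells, led by Gsn and Ptn, had 48.2 CPM (43.8 to 52.9). Fzd5 had 52 UMIs in that main cluster, at 5.73 CPM (4.28 to 7.52), and 1 UMI in the rest of the class, too few to compare.

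**Figure D3:**
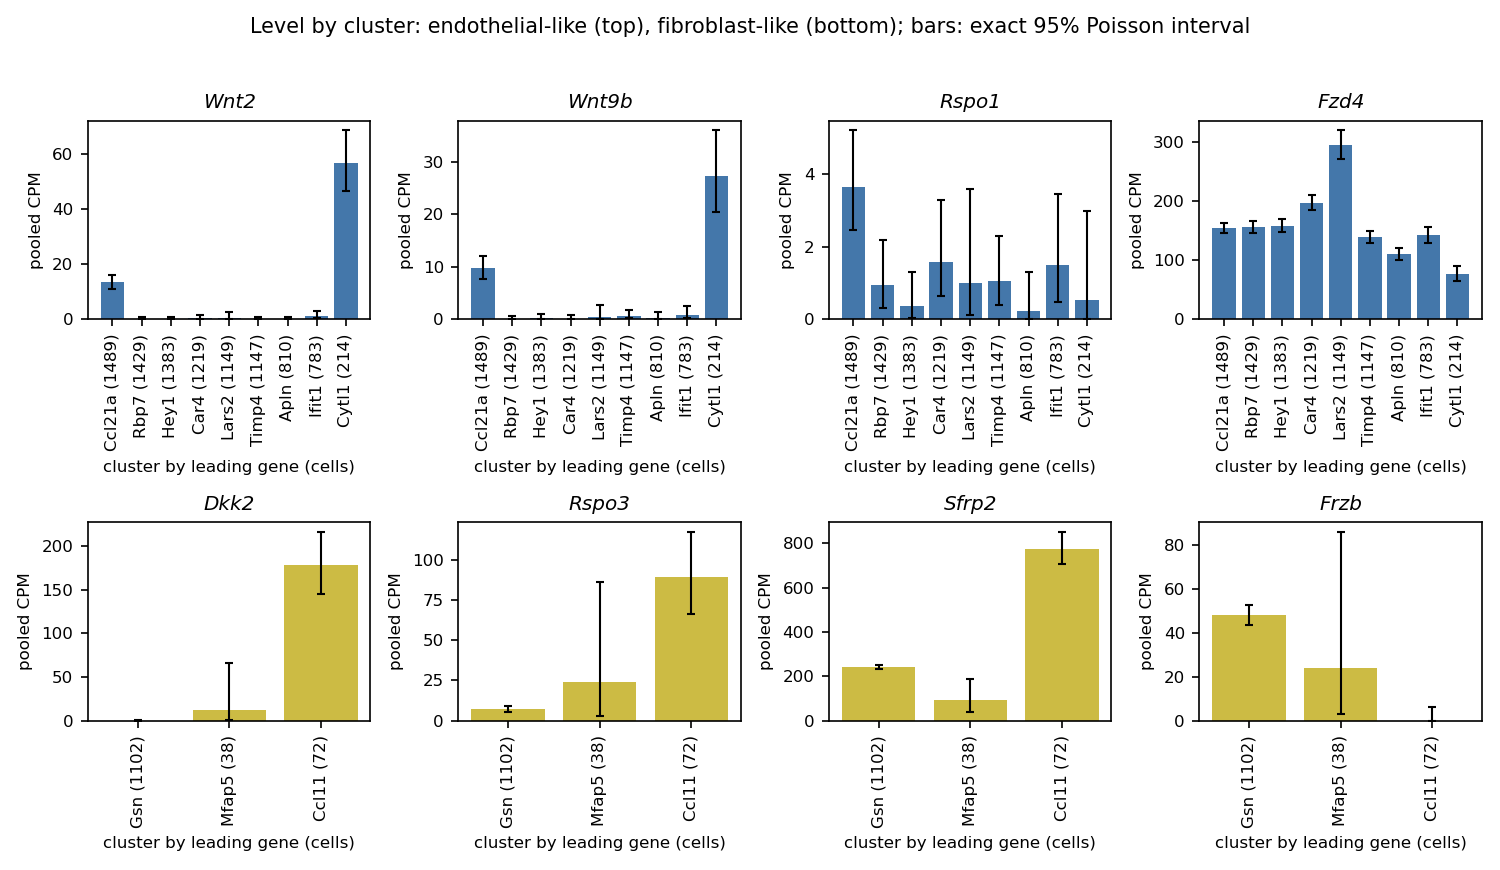
Pooled CPM of 4 genes in the 9 endothelial-like clusters (top) and of 4 genes in the 3 fibroblast-like clusters (bottom), each cluster named by its leading gene with its number of cells, with exact 95% Poisson intervals. Wnt2 and Wnt9b peak in the Cytl1 cluster, Dkk2, Rspo3 and Sfrp2 in the Ccl11 cluster, where Frzb is at 0.

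Genotypes were first compared over all cells of a library, where the 34 genes are read through the mix of cells. None of the 27 genes that could be tested passed an adjusted p of 0.05 with edgeR's quasi-likelihood test (0% of 12969 genes passed), and 7 were too low to test. At an unadjusted p under 0.05 there were 14 of the 27, all higher in Dsp_het, against 12.7% of all genes tested. DESeq2 called 3, Rspo1, Wnt5a and Fzd2, among 382 genes that it called in all. In 10 of the 27 all Dsp_het libraries lay above all control libraries, against 10.6% of all genes, and in 0 they lay below, against 7.67%. The median log2 fold change of the 27 was 0.93, against -0.01 over all genes. Fewer cells of a class and less RNA per cell cannot be told apart in such sums.

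By role, 7 of 7 tested ligands, 5 of 5 R-spondin and LGR genes, 4 of 4 antagonists and Axin2 had a log2 fold change above 0, against 47.7% of all genes. The receptors divided, with 6 of 10 above 0. Rspo2 reached the level needed for testing only in Dsp_het libraries, and Lgr5 in those and in control library 2. Both are among the 5 of 5 and the 14 genes at an unadjusted p under 0.05. Rspo2 is also among the 10 genes without overlap. Neither gene is therefore support for these counts. Rspo1 had 91.5, 61.6 and 93 normalised CPM in the Dsp_het libraries, against 18.9, 29.5 and 41.1 in the control libraries. All Dsp_het libraries lay above all control libraries, with a log2 fold change of 1.45 (SE 0.29, edgeR adjusted p = 0.144). Fzd2 had 40.6, 21 and 28.4 normalised CPM in the Dsp_het libraries, against 11.5, 15.1 and 12.1 in the control libraries, again without overlap, and a log2 fold change of 1.23 (SE 0.25, edgeR adjusted p = 0.144). Wnt9a had 9.98, 7.93 and 12 normalised CPM in the Dsp_het libraries, against 5.98, 5.48 and 4.30 in the control libraries, without overlap, and a log2 fold change of 0.93 (SE 0.23, edgeR adjusted p = 0.188). These are the 3 smallest p-values, and none passes the threshold. Leaving out Dsp_het library 1 brought the median of the genes tested to 0.58, Rspo1 to 1.36, Fzd2 to 0.94 and the number at an unadjusted p under 0.05 to 9. Leaving out Dsp_het library 2 took Fzd2 past the threshold (edgeR adjusted p = 0.0395), among 170 of all genes that passed in that run.

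The shares of the classes differed in the same libraries. Epicardial-like cells were 8.06%, 4.46% and 8.99% of cells in Dsp_het libraries, against 2.01%, 2.97% and 3.26% in control libraries. Their share of UMIs was 14.3%, 9.41% and 18% in Dsp_het libraries, against 3.32%, 4.88% and 6.76% in control libraries. Both shares were higher in all Dsp_het libraries. Fibroblast-like cells were 21.1%, 6.60% and 8.61% of cells in Dsp_het libraries, against 4.79%, 6.06% and 5.81% in control libraries, again without overlap and with Dsp_het library 1 far above the rest. These shares were not tested. Barcodes left out because another library held most of their UMIs were 61.8% of epicardial-like, 42.6% of fibroblast-like and 4.93% of endothelial-like barcodes. With them kept, epicardial-like cells were 406 of 3566, 307 of 2806 and 207 of 1486 cells in Dsp_het libraries. In control libraries they were then 254 of 3134, 133 of 1817 and 271 of 3494. Epicardial-like cells gave 60.5, 50.9 and 87.3 CPM in the Dsp_het libraries, against 14, 22.2 and 33.1 CPM in the control libraries, of the Rspo1 in all cells. Within epicardial-like cells Rspo1 itself overlapped between genotypes, at 499 ± 63.1 normalised CPM in the Dsp_het libraries and 462 ± 36.7 in the control libraries (SD, n = 3 each). Of the receptors highest in endothelial-like cells, over all cells Fzd4 had a log2 fold change of -0.05 (SE 0.18, edgeR adjusted p = 0.936) and Fzd6 a log2 fold change of -0.30 (SE 0.15, edgeR adjusted p = 0.481).

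**Figure D4:**
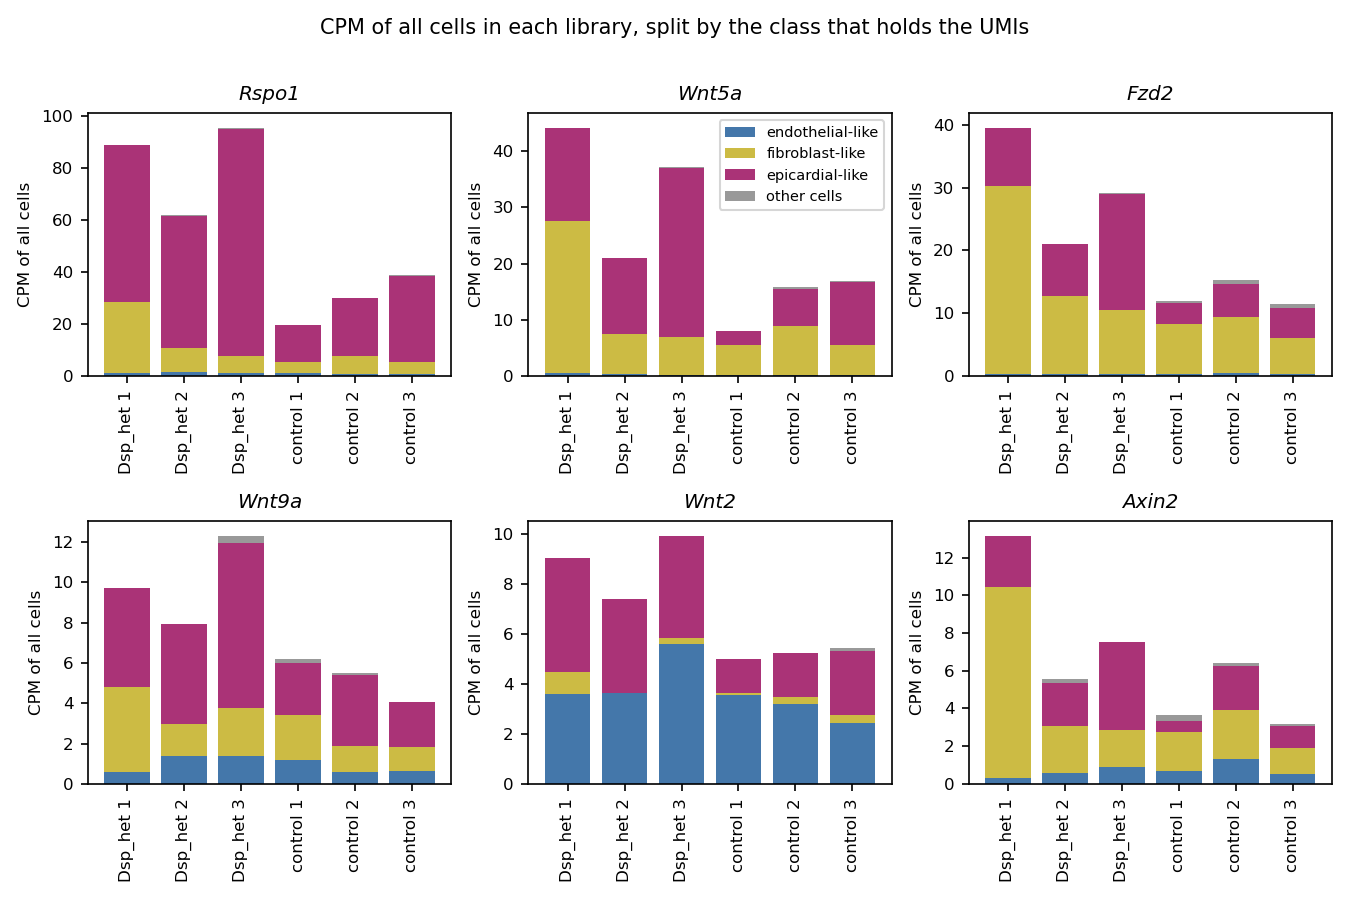
CPM of 6 genes over all cells of each library (x axis, Dsp_het left of control), with each bar split by the class that held the UMIs. The epicardial-like part of Rspo1 is 50.9 to 87.3 CPM in the Dsp_het libraries and 14 to 33.1 CPM in the control libraries.

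In endothelial-like cells 12 of the 34 genes could be tested, and none passed with edgeR (0% of 11292 genes passed) or with DESeq2. At an unadjusted p under 0.05 there were 2, Wnt2 and Rspo1, against 4.48% of all genes. In 3 all Dsp_het libraries lay above all control libraries, against 4.31% of all genes, and in 0 below, against 3.84%. Rspo1 is in both counts, but it reached the level needed for testing only in Dsp_het libraries. It therefore lends these counts no support. Wnt2 had 7.23, 5.14 and 10.4 normalised CPM in the Dsp_het libraries, against 4.40, 4.40 and 3.83 in the control libraries, with no overlap and a log2 fold change of 0.83 (SE 0.28, edgeR adjusted p = 0.883). Rspo1 had 1.96, 2.25 and 1.69 normalised CPM in the Dsp_het libraries, against 1.10, 0.800 and 1.14 in the control libraries, a level near 2 CPM or less, with no overlap and a log2 fold change of 0.92 (SE 0.38, edgeR adjusted p = 1.00). Wnt9b had 2.41, 5.62 and 7.20 normalised CPM in the Dsp_het libraries, against 4.16, 1.40 and 1.55 in the control libraries, with overlap and a log2 fold change of 1.03 (SE 0.47, edgeR adjusted p = 1.00).

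Beside these, the Cytl1 cluster, in which Wnt2 and Wnt9b were highest, made up 3.67%, 1.37% and 4.58% of endothelial-like cells in Dsp_het libraries, against 1.54%, 1.36% and 1.80% in control libraries. Without it, as chosen after seeing the data, the log2 fold change of Wnt2 was 1.13 (SE 0.34, edgeR adjusted p = 0.773) and that of Wnt9b was 1.65 (SE 0.44, edgeR adjusted p = 0.681). The epicardial markers, 12 of 12 detected in endothelial-like cells, summed to 45.8, 39.9 and 50.1 CPM there in Dsp_het libraries, against 34.2, 38 and 28.7 CPM in control libraries, and their part in the Rspo1 and Wnt2 values was not tested. Lrp5 was the other gene without overlap, at 47.3 ± 1.67 normalised CPM in the Dsp_het libraries and 42.7 ± 3.76 in the control libraries (SD, n = 3 each). Its log2 fold change was 0.15 (SE 0.11, edgeR unadjusted p = 0.197), and its CPM before normalisation overlapped.

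In fibroblast-like cells none of 18 tested genes passed with edgeR (0.0119% of 8402 genes passed, 1 gene) or with DESeq2, and 0 had an unadjusted p under 0.05, against 2.94% of all genes. That gene was Cilp, which codes for a matrix protein of cartilage. In 0 of the 18 did the genotypes separate, against 4.17% of all genes with all Dsp_het libraries above and 3.64% with all below. The median of the 18 was 0.18, with 13 above 0. Fzd4 had 58.1, 65.5 and 48.4 normalised CPM in the Dsp_het libraries, against 45.6, 51.1 and 36.5 in the control libraries, with overlap and a log2 fold change of 0.40 (SE 0.20, edgeR adjusted p = 1.00). Frzb had 29.8, 49.9 and 57.6 normalised CPM in the Dsp_het libraries, against 70.9, 38.7 and 73.1 in the control libraries, with overlap and a log2 fold change of -0.53 (SE 0.27, edgeR adjusted p = 1.00). Sfrp1 had 544, 406 and 377 normalised CPM in the Dsp_het libraries, against 539.6, 665 and 476 in the control libraries, with overlap and a log2 fold change of -0.33 (SE 0.18, edgeR adjusted p = 1.00). Axin2 did not separate the genotypes, at 22.9 ± 8.12 normalised CPM in the Dsp_het libraries and 21.4 ± 6.40 in the control libraries (SD, n = 3 each).

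In epicardial-like cells none of 20 tested genes passed with edgeR (0% of 8263 genes passed) or with DESeq2, and 0 had an unadjusted p under 0.05, against 3.05% of all genes. Their median was -0.07, with 7 above 0 and 13 below. Sfrp2 was the 1 gene without overlap, with all Dsp_het libraries below all control libraries, as in 4.31% of all genes, and 0 lay wholly above, against 3.98%. It had 42.5, 48.9 and 46.2 normalised CPM in the Dsp_het libraries, against 51.2, 62.2 and 52.7 in the control libraries, and a log2 fold change of -0.27 (SE 0.21, edgeR adjusted p = 0.999). Fzd7 had 27.5, 28.8 and 30.6 normalised CPM in the Dsp_het libraries, against 48.2, 53.3 and 24.9 in the control libraries, with overlap and a log2 fold change of -0.39 (SE 0.30, edgeR adjusted p = 0.999). Fzd3 had 15.6, 15 and 13.7 normalised CPM in the Dsp_het libraries, against 12, 26.7 and 19.9 in the control libraries, with overlap and a log2 fold change of -0.41 (SE 0.34, edgeR adjusted p = 0.999). The epicardial-like sums held as few as 335398 UMIs in a control library, and a p that misses the threshold does not show that levels were alike.

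**Figure D5:**
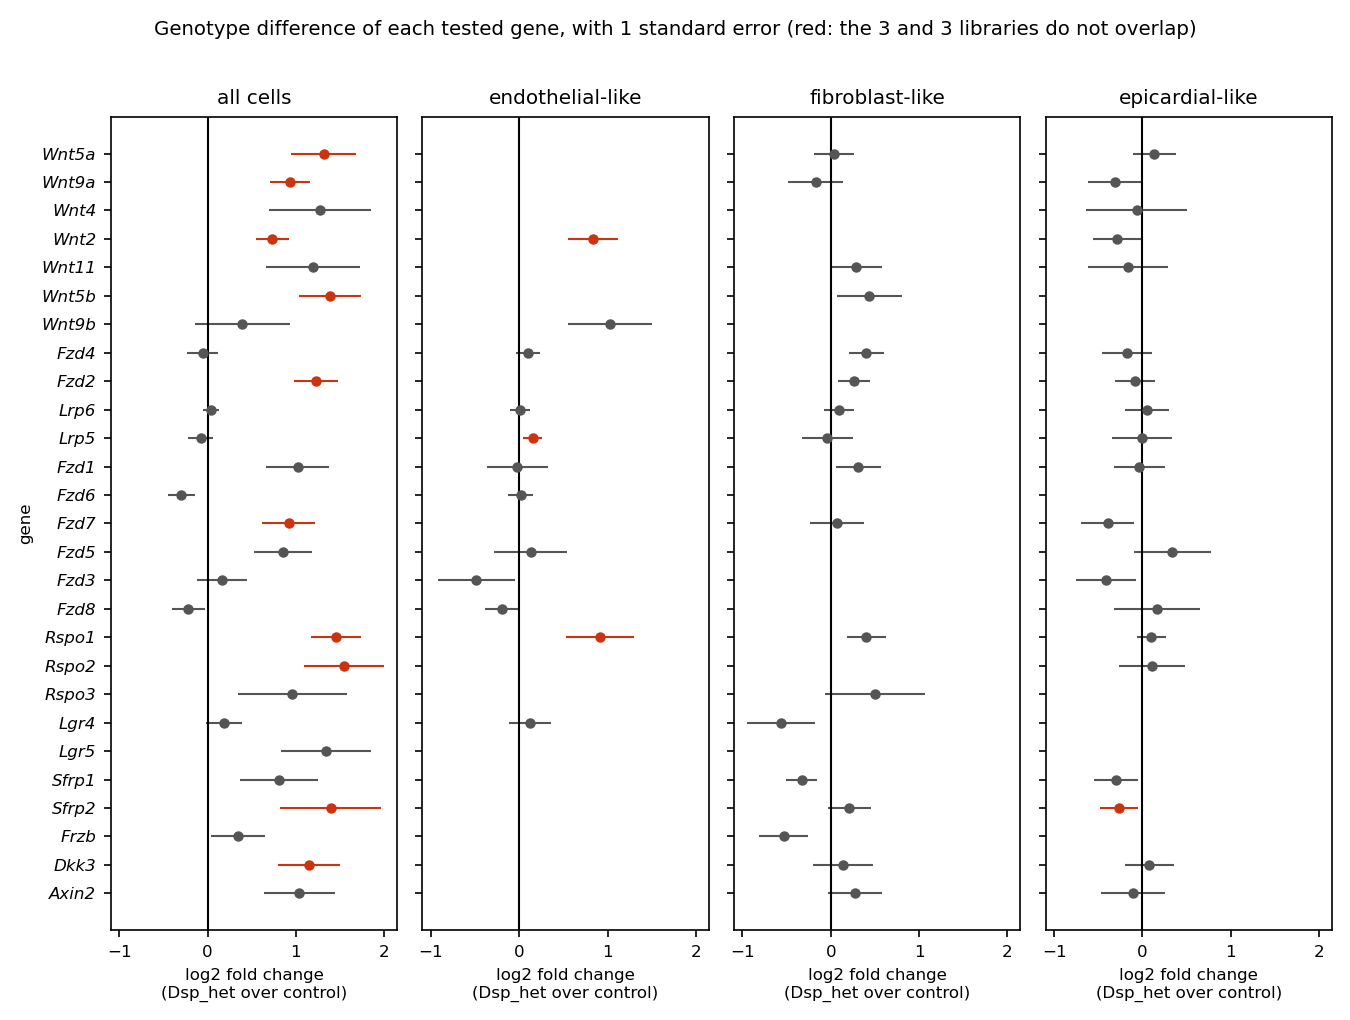
Log2 fold change of Dsp_het over control (x axis) with 1 standard error for each tested gene (rows) in all cells and in 3 classes; red marks genes whose 3 Dsp_het and 3 control libraries do not overlap. In all cells 23 of 27 genes lie above 0, while in epicardial-like cells 7 of 20 do.

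Whether the genotype effect differed between classes was tested as an interaction. None of the 29 genes in the fit passed in any of 3 pairs of classes with edgeR, where the lowest adjusted p was 0.877. The share of all 11162 genes that passed was 0.00896% for epicardial-like below endothelial-like and 0% otherwise. Among the 29, Sfrp4, Rspo2 and Wnt7b had 0 UMIs in endothelial-like, Wnt7b 0 in fibroblast-like and Frzb 0 in epicardial-like cells. Their contrasts with those classes could not be estimated, so that these did not pass is no result. At an unadjusted p under 0.05 there were 2 of 29 for epicardial-like minus endothelial-like, against 5.29% of all genes, 1 for epicardial-like minus fibroblast-like, against 4.91%, and 0 for fibroblast-like minus endothelial-like, against 3.78%. These counts lie near the shares of all genes. The effect on Wnt2 in epicardial-like minus that in endothelial-like cells was -1.13 (SE 0.45, unadjusted p = 0.0225, edgeR adjusted p = 0.877). For Wnt9a the same difference was -1.01 (SE 0.43, unadjusted p = 0.0287, edgeR adjusted p = 0.893). For Fzd4 the effect in epicardial-like minus that in fibroblast-like cells was -0.71 (SE 0.30, unadjusted p = 0.0281, edgeR adjusted p = 0.988).

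Other genes of the pathway, in 3 lists chosen with earlier results known, also gave no call in any comparison with edgeR. Over all cells, 14 of 21 tested genes of WNT secretion and other receptors were above 0, against 47.7% of all genes, with 7 at an unadjusted p under 0.05, against 12.7%, and a median of 0.25. Gpc3, a cell surface proteoglycan that binds WNTs, was at 247 ± 34.1 normalised CPM in the Dsp_het libraries and 98.1 ± 29.7 in the control libraries (SD, n = 3 each), without overlap, with a log2 fold change of 1.33 (SE 0.24, edgeR adjusted p = 0.131). Wls, the carrier that takes WNTs to the cell surface, was at 81 ± 20.6 normalised CPM in the Dsp_het libraries and 50.7 ± 2.26 in the control libraries (SD, n = 3 each), without overlap.

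Of the signal transduction genes 13 of 24 were above 0, with 3 at an unadjusted p under 0.05 and a median of 0.01, counts near the 47.7% and 12.7% of all genes. Ctnnbip1, which keeps β-catenin from TCF factors, was at 229 ± 37.6 normalised CPM in the Dsp_het libraries and 317 ± 45.8 in the control libraries (SD, n = 3 each), with a log2 fold change of -0.47 (SE 0.16, edgeR adjusted p = 0.305). Bcl9l, a β-catenin co-factor, had a log2 fold change of 0.33 (SE 0.11, edgeR adjusted p = 0.282). Both were without overlap, Bcl9l wholly above, as in 10.6% of all genes, and Ctnnbip1 wholly below, as in 7.67%. Of the targets and feedback genes 9 of 12 were above 0, against 47.7% of all genes, with 6 at an unadjusted p under 0.05, against 12.7%, and a median of 0.69. Nkd2, a feedback inhibitor that binds Dishevelled, had a log2 fold change of 1.35 (SE 0.43, edgeR adjusted p = 0.273), and Ccnd1, cyclin D1, had a log2 fold change of -0.49 (SE 0.16, edgeR adjusted p = 0.279). These 2 were also without overlap, Nkd2 wholly above and Ccnd1 wholly below.

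Within classes few genes of these lists had an unadjusted p under 0.05. In endothelial-like cells there were 1 of 18 secretion and receptor genes, 0 of 23 transduction genes and 0 of 8 targets, against 4.48% of all genes. In fibroblast-like cells there were 1 of 16, 0 of 24 and 2 of 8 in the same lists, against 2.94%, and in epicardial-like cells 0 of 12, 1 of 22 and 0 of 7, against 3.05%. Genes without overlap are to be read against the shares of all genes given above for each class, of 3.64% to 4.31% in either direction. In fibroblast-like cells Nkd2 was at 27.2 ± 7.03 normalised CPM in the Dsp_het libraries and 17.7 ± 3.69 in the control libraries (SD, n = 3 each), with overlap, and Cyp1b1, a cytochrome P450 enzyme, at 50.3 ± 16.8 normalised CPM in the Dsp_het libraries and 28.6 ± 18.7 in the control libraries (SD, n = 3 each). In fibroblast-like cells Reck, a co-factor of WNT7 signalling, was at 77.2 ± 10.0 normalised CPM in the Dsp_het libraries and 58.6 ± 1.25 in the control libraries (SD, n = 3 each), without overlap. Vangl1, of planar cell polarity, had a log2 fold change of 0.51 (SE 0.25, edgeR adjusted p = 1.00) there, also without overlap. Tle3, a co-repressor of TCF factors, had a log2 fold change of 0.39 (SE 0.22, edgeR adjusted p = 1.00) there, without overlap, and Ctnnbip1 a log2 fold change of -0.51 (SE 0.34, edgeR adjusted p = 1.00), with overlap. In epicardial-like cells Dvl1, a Dishevelled that relays the signal from Frizzled, was at 14.9 ± 3.45 normalised CPM in the Dsp_het libraries and 26.5 ± 6.37 in the control libraries (SD, n = 3 each), without overlap, and had a log2 fold change of -0.79 (SE 0.33, edgeR adjusted p = 0.999). Tle3 had a log2 fold change of -0.46 (SE 0.30, edgeR adjusted p = 0.999), Vangl1 a log2 fold change of -0.43 (SE 0.28, edgeR adjusted p = 0.999) and Ptk7, a receptor of planar cell polarity, a log2 fold change of 0.38 (SE 0.36, edgeR adjusted p = 0.999) in that class. Slc2a1, a glucose transporter, had a log2 fold change of -0.51 (SE 0.33, edgeR adjusted p = 0.999), and Bambi, a decoy receptor of TGF-β signalling, a log2 fold change of -0.23 (SE 0.18, edgeR adjusted p = 0.999), both with overlap. In endothelial-like cells Porcn, the enzyme that puts the lipid on WNTs, was at 5.05 ± 1.08 normalised CPM in the Dsp_het libraries and 3.07 ± 0.805 in the control libraries (SD, n = 3 each), without overlap, and had a log2 fold change of 0.68 (SE 0.30, edgeR adjusted p = 1.00). Wls had a log2 fold change of 0.30 (SE 0.14, edgeR adjusted p = 1.00), with overlap, and Invs, inversin, a log2 fold change of 0.31 (SE 0.16, edgeR adjusted p = 1.00), without overlap, in that class. Dvl1 had a log2 fold change of 0.21 (SE 0.12, edgeR adjusted p = 1.00), Ccnd1 a log2 fold change of -0.24 (SE 0.14, edgeR adjusted p = 1.00) and Bambi a log2 fold change of -0.20 (SE 0.13, edgeR adjusted p = 1.00), all with overlap. None of these genes passes the threshold.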

How the data were processed

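Cells sorted from 3 Dsp_het and 3 control heart preparations were profiled by droplet RNA-seq. The authors deposited 1 matrix of raw UMI counts per gene and barcode, with the total count per barcode. The submitters' processing notes name GRCm38 and Seurat. No source used here names the aligner or the counting program. The number after each barcode was matched to the sample number in the labels.

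Barcodes with at least 500 UMIs, 200 genes and at most 20% mitochondrial UMIs were kept. The doublet caller marked 35 barcodes (0.214%), where about 385 would be usual for this number of barcodes, and so did not work: doublets remain in the data. Of 16303 kept barcodes, 3652 were copies of a barcode held mainly by another library, with a median of 589 UMIs and 4.25% of all UMIs, and were left out. Cells were clustered with scanpy 1.11.5 on 2000 variable genes without the 34 described, with 30 principal components, 15 neighbours and Leiden resolution 1. Classes were named from marker lists, and differences from the study's own cell types may come from that naming.

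UMIs were summed per library and class (at least 20 cells in each library) and tested with edgeR 4.0.16 (quasi-likelihood, TMM, filterByExpr with a minimum count of 10, Benjamini-Hochberg over all genes tested, threshold 0.05). The 6 libraries of a class entered each fit, and classes were compared in 1 model with the library as a block. Normalised CPM are CPM scaled by TMM. The code was tested on simulated data. Intervals are 95% exact Poisson intervals and cover counting error only. Alternatives were DESeq2 1.42.0, another scaling, no filter, a replicate block, a sex term, other cell filters and each library left out.

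Members and lists were chosen with earlier results of these data known. Values in each library are given for genes with a mean of at least 25 CPM in a class or the highest of their role. Genotype values are given for the 3 smallest p-values per comparison and for 2 genes of each other list. Clusters are named for genes with at least 30 UMIs at 3 times the rest of the class. Other genes were added after their values were seen. Gene positions are from GENCODE and promoters from RefSeq, both on GRCm38.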

Additional observations from a re-analysis of the deposited data

How the results depend on the processing

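For the genes with the smallest p-values, 185 fold changes under alternative runs kept their direction and side of the threshold, 4 passed it and none reversed. Of the counts of calls and classes, 118 stayed at or near the reported count and 4 moved. A count that stays near can hide single genes that change class, as Fzd2, Dkk2 and Rspo3 did. Fzd4 over all cells, at -0.05 as reported, was at 0.11 without Dsp_het library 1. Over all cells the number of the 34 genes called at an adjusted p of 0.05, 0 as reported, was 1 without a filter on low counts (Rspo1, edgeR adjusted p = 0.0484) and 3 with DESeq2 (adjusted p of 4.62e-05 for Rspo1, 0.00102 for Fzd2 and 0.0115 for Wnt5a). Of all genes, 73 were called without the filter and 382 with DESeq2. Leaving out each library in turn gave 0 to 1 of the 34, with Fzd2 called without Dsp_het library 2, where 170 of all genes were called. In fibroblast-like cells 1 of the 34 genes was called without the filter, among 71 of all genes. It was Wif1, with a log2 fold change of -4.41 (edgeR adjusted p = 0.000252), which rests on 29 UMIs in 5 cells. The cause of these changes was not tested. Over all alternatives the log2 fold change over all cells was 1.21 to 1.77 for Rspo1, 0.94 to 1.43 for Fzd2 and 0.78 to 1.07 for Wnt9a, and in endothelial-like cells 0.56 to 1.13 for Wnt2 and 0.71 to 1.72 for Wnt9b.

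With a replicate block 0 of the 34 genes were called in each comparison, and 10 of them over all cells had an unadjusted p under 0.05. Deviations of same-numbered libraries from their group means had correlations of 0.016, -0.098 and -0.102 over all cells. Within classes these ran from -0.167 to 0.095. With 3 libraries per group, such values cannot exclude a batch shared by same-numbered samples. The alternatives without the clusters led by Ccl11 or Cytl1 were chosen after seeing the data. Low counts limit what could be tested: 12 of the 34 genes in endothelial-like, 18 in fibroblast-like and 20 in epicardial-like cells. Pericyte-like and macrophage-like cells could not be fitted, with under 20 cells in some libraries. With the copies kept, 1 of the 34 genes could be tested in each, and it was not called.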

Other observations

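In pericyte-like cells (250 cells), Fzd4, a gene high in endothelial-like cells, was at 134 CPM (95% exact Poisson interval 118 to 151, counting error only). The 12 endothelial markers, all detected, summed there to 18514 to 28965 CPM in Dsp_het libraries and 19243 to 24829 CPM in control libraries, above the 8 pericyte markers, at 5595 to 8872 CPM in Dsp_het libraries and 7555 to 9968 CPM in control libraries. The part of endothelial RNA in the Fzd4 value was not tested. All 18 Wnt9b UMIs of the class lay in 1 cell of control library 3. The macrophage-like cluster of 194 cells had Lrp6 at 89.1 CPM (77.2 to 102), while Fzd4 had 25 UMIs, at 11.1 CPM. A glial-like group of 5 cells held 29 Sfrp1 UMIs, at 538 CPM (360 to 772), and 6 Wnt6 UMIs, at 111 CPM (40.8 to 242). These cells were too few for a comparison of genotypes.

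The epicardial-like cluster of 508 cells led by Upk3b and Msln had Rspo1 at 473 CPM (455 to 491) and Wnt5a at 145 CPM (135 to 155). The other, led by Krt19 and Myl7, kept 93 of 1069 barcodes once copies were left out, 52 of them from Dsp_het library 1, with a median of 1886 UMIs per cell. It had Rspo1 at 370 CPM (299.8 to 452) on 96 UMIs and Wnt5a at 34.7 CPM (15.9 to 65.9) on 9 UMIs. The difference between the clusters was not tested.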
